A study of Mus musculus with 4 samples.

Results

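Death receptor and necroptosis genes in the testis are described here as 10 genes: *Fas* and *Tnfrsf10b*, which encode the receptors of FAS ligand and TRAIL, the adaptors *Fadd*, *Tradd* and *Traf2*, the caspase-8 regulator *Cflar*, the FAS-binding phosphatase *Ptpn13*, the kinases *Ripk1* and *Ripk3*, and the necroptosis effector *Mlkl*. They were taken by gene name from the 55820 loci of the deposited table, and all 10 were found once each. The RNA of whole testes was sequenced at postnatal day 10 in 4 libraries, 2 from control mice and 2 from Mps1sKO mice, all male and of strain C57BL/6J. In Mps1sKO mice, *Stra8*-Cre removes the floxed *Mps1* gene, also called *Ttk*, in germ cells from early spermatogonia on, and the somatic cells of the testis, such as Sertoli and Leydig cells, are not its target. The labels call the other group control and give neither its alleles nor the number of mice behind a library, so the p-values measure the spread between these libraries. In a whole testis, fewer cells of a type and less RNA per cell cannot be told apart.

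Death receptors are membrane proteins of the TNF receptor superfamily with a cytoplasmic death domain. When FAS or the TRAIL receptor binds its ligand, FADD joins the receptor to caspase-8, and the protein cFLIP, which *Cflar* encodes, controls how far caspase-8 is activated. TRADD, TRAF2 and RIPK1 work at TNF receptor 1, where RIPK1 can lead to cell survival, to apoptosis or, if caspase-8 is held back, to necroptosis. In necroptosis RIPK1 and RIPK3 join through a shared short motif, and RIPK3 phosphorylates MLKL, which then breaks the plasma membrane. In the testis, FAS ligand and FAS have long been studied as a pair that can act between Sertoli cells and germ cells.

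The counts of a library summed to between 23311689 and 28607746. After loci with low counts were removed by edgeR's filter, 20561 were tested, all 10 genes included. Of the 7 genes of an adipocyte list, *Fabp4* and *Car3* had 129 and 117 counts in control replicate 2. Control replicate 1 had 28 and 14, against 15 and 12 of *Fabp4* and 8 and 4 of *Car3* in the Mps1sKO libraries. *Adipoq*, *Retn* and *Cidec* were also highest in control replicate 2, with 23, 20 and 6 counts against 1 to 7, 4 to 10 and 1 to 4. *Plin1*, the most abundant, was instead lowest there with 344 counts against 505 to 644, and *Lep* had 0 counts throughout. The summed level of the list, 20.9 to 25.2 CPM, follows mostly *Plin1* and so says little about the other genes. What this difference does to the values of the 10 genes was not tested. Levels are given as CPM, which are counts scaled to the size of each library by edgeR's TMM method, and as the FPKM values of the authors, which also divide by gene length and are used wherever levels of different genes are set side by side. Fold changes are Mps1sKO over control, and each was put to the quasi-likelihood test of edgeR, two-sided, with p adjusted over all 20561 loci by the Benjamini-Hochberg method. The targeted gene *Ttk* had 27.9 and 32.6 CPM in control and 13.0 and 12.2 CPM in Mps1sKO libraries, for a log2 fold change of −1.26 (standard error, SE, 0.13, edgeR adjusted p = 0.0461). An exact permutation test of 2 libraries against 2 cannot give a two-sided p below 0.333, so no such test is given for single values.

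Sequences are shown for *Ptpn13*, *Cflar* and *Ripk1*, because these were the genes with an unadjusted p below 0.05. The primer pair that the study used for *Ptpn13* in qPCR lies on chromosome 5 of GRCm38, and it matched exactly in transcripts of *Ptpn13* and of no other gene of GENCODE M21. Both primers were found in 3 of the 5 annotated *Ptpn13* transcripts, where they enclose 140 bases. The forward primer covers 103523741 to 103523760 on the plus strand, within exon 10 of transcript ENSMUST00000048957. The reverse primer begins in exon 12 and crosses into exon 11, so that its bases lie between 103525825 and 103525949 on the minus strand.
Ptpn13 forward primer: cctaagggaaatggccctgg
Ptpn13 reverse primer: ccttcttggtctgcgagagg

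RefSeq's promoter table for GRCm38.p6 held 8 of the 10 genes, and the 250 bases before the start are printed for the same 3 genes, for *Ripk1* before the first of the 2 starts that the table lists, with no annotated exon in these windows. Capitals mark the GC box (GGGCGG), the CCAAT box (CCAAT) and the TATA box (TATAAA), searched on both strands, and overlapping matches run together.
Ptpn13 upstream, chr5:103424942-103425191, plus strand: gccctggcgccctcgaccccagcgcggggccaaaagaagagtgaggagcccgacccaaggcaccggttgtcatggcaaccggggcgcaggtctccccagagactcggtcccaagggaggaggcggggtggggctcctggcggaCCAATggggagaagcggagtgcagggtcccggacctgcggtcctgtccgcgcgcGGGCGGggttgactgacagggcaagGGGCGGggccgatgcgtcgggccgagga
Cflar upstream, chr1:58711241-58711490, plus strand: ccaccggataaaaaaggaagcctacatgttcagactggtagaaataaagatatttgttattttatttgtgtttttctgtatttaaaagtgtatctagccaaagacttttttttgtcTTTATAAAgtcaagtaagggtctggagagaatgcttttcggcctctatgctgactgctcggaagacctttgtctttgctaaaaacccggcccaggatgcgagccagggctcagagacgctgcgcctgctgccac
Ripk1 upstream, chr13:34002113-34002362, plus strand: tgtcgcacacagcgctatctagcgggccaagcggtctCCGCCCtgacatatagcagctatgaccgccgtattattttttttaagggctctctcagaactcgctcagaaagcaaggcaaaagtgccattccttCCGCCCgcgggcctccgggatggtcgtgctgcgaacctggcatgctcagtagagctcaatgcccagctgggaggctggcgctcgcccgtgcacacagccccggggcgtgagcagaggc
The *Ptpn13* window has 72.4% G and C, against a median of 52.4% for all promoters of the table, and holds 2 GC boxes and 1 CCAAT box. The *Cflar* window has 42.8% G and C and holds 2 overlapping TATA box matches, 1 on each strand, and no GC box. In the *Ripk1* window, with 60.8% G and C, there are 2 GC boxes, both on the other strand. The window before the second *Ripk1* start, chr13:34002624-34002873, overlaps exons of *Ripk1* and *Serpinb6a* and has 69.6% G and C and 4 GC boxes. Of all 32851 promoters, 32.7% hold the GC box, 33.8% the CCAAT box and 12.4% the TATA box in the same 250 bases. A match is a description of these letters and not a site.

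No gene of the 10 passed an adjusted p of 0.05 with edgeR, where 0.0292% of all loci tested did. DESeq2, which gave no adjusted p for *Fas*, and limma-voom also called 0. At an unadjusted p below 0.05, edgeR gave 3 of the 10, *Ptpn13*, *Cflar* and *Ripk1*, all higher in Mps1sKO testes. Over all loci tested, 9.30% reached that threshold, made up of 3.92% higher and 5.37% lower in Mps1sKO testes. *Ptpn13* reached it in every alternative run except the fit without control replicate 2, in which none of the 10 did and 3.77% of all loci did. *Cflar* did not reach it with DESeq2 or with the replicate number as a block, nor without control replicate 1, control replicate 2 or Mps1sKO replicate 1. *Ripk1* missed the threshold most often of the 3, with DESeq2, with the block, when libraries were scaled by their totals alone, when no loci were filtered, and whenever 1 library was left out. When no loci were filtered, *Fadd* reached the threshold instead, as did 8.52% of all loci. Which of the 10 reached it also changed with 1 library left out. Without Mps1sKO replicate 1 the log2 fold changes of *Fadd*, *Ptpn13* and *Tnfrsf10b* were 0.36, 0.24 and −0.43.

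At the study's relaxed cut-offs, which ask for 1.2-fold and an unadjusted p below 0.05, *Ptpn13* alone passed. Of all loci tested, 8.04% did, 3.09% as higher and 4.95% as lower. The number of the 10 that passed changed without the filter on low counts and when 1 library was left out. The share of all loci in those fits was not computed. None met the stricter cut-offs of 1.5-fold and an unadjusted p below 0.01, which 0.827% of all loci met. The log2 fold changes ran from −0.23 for *Tnfrsf10b* to 0.31 for *Ptpn13*, with a median of 0.13 against 0.00027 over all loci tested. The median was 0.20 without control replicate 1 and 0.074 without Mps1sKO replicate 2.

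Taken gene by gene, these values bound how large a change in whole-testis RNA, relative to library size, could have been. Each bound rests on the spread between these libraries. The values set no bound on a change within 1 cell type, which was not measured here. The 95% interval of the fold change lay inside a 2-fold change in either direction for all 10 genes, as it did for 77.2% of all loci tested. It lay inside a 1.5-fold change for 7 of the 10, and the share of all loci was not computed for that size. The exceptions were *Fas*, *Fadd* and *Tnfrsf10b*. For 7 of the 10 the interval included no change.

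**Figure D1:**
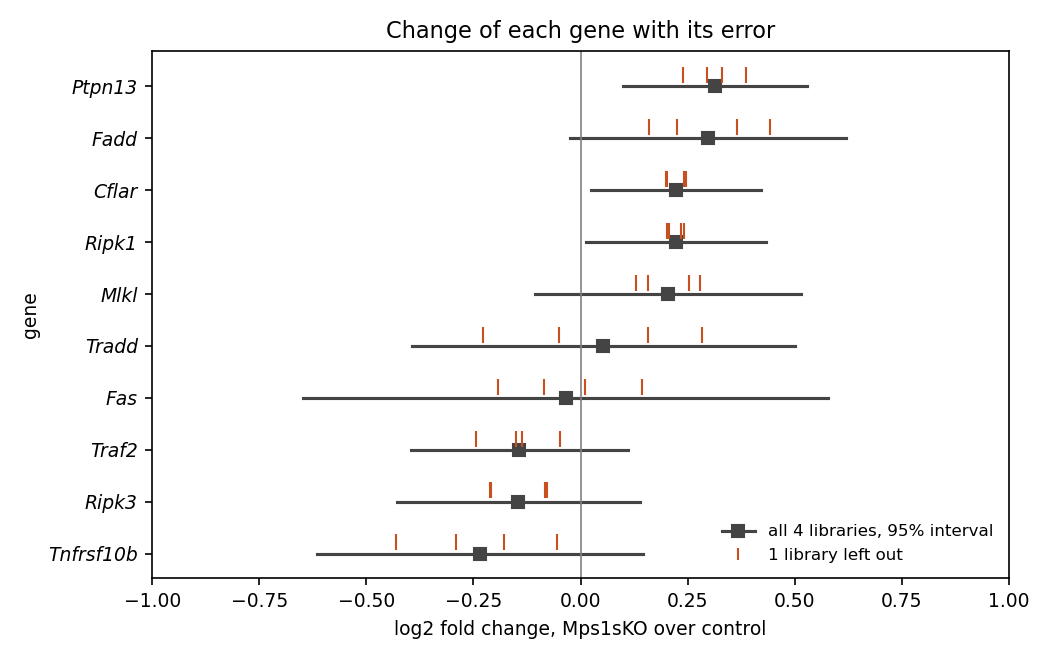
Log2 fold change of each of the 10 genes, Mps1sKO over control, with squares and bars for edgeR's estimate and its 95% interval from all 4 libraries and ticks for the fits with 1 library left out. The bars of *Ptpn13*, *Cflar* and *Ripk1* lie to the right of 0, and the ticks of *Fas* and *Tradd* lie on both sides of it.

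Among the receptors, *Fas* (ENSMUSG00000024778, chromosome 19 from 34290666 to 34327772) was the lowest of the 10 genes. Control libraries held 37 and 50 of its counts and Mps1sKO libraries 34 and 42, which is 1.37 and 1.73 CPM against 1.47 and 1.57. The Mps1sKO values lay between the control values. It had a log2 fold change of −0.035 (SE 0.26, edgeR adjusted p = 0.981), and counting error alone gives a standard error of 0.23. A change of *Fas* between 0.638-fold and 1.49-fold is within the 95% interval. The direction turned to 0.14 without control replicate 2 and to 0.010 without Mps1sKO replicate 1.

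*Tnfrsf10b* (ENSMUSG00000022074, chromosome 14 from 69767472 to 69784411), the only TRAIL receptor of the mouse with a death domain, had 12.3 and 13.3 CPM in control and 12.3 and 9.48 CPM in Mps1sKO libraries. Mps1sKO replicate 1 lay just above control replicate 1, and Mps1sKO replicate 2 was the lowest of the 4 libraries. Its log2 fold change of −0.23 (SE 0.16, edgeR adjusted p = 0.671) was the most negative of the 10, and it was −0.056 without Mps1sKO replicate 2 and −0.43 without Mps1sKO replicate 1. Per length, *Tnfrsf10b* stood at 2.33 ± 0.131 FPKM and *Fas* at 0.748 ± 0.124 FPKM in control testes (SD, n = 2 each).

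*Ptpn13* (ENSMUSG00000034573, chromosome 5 from 103425192 to 103598303) encodes a large protein tyrosine phosphatase that can bind the tail of FAS. Control libraries held 2763 and 2885 of its counts and Mps1sKO libraries 3069 and 3205, which is 8.40 and 8.21 FPKM against 10.9 and 9.86 FPKM. Both Mps1sKO libraries lay above both control libraries, and the controls differed from each other by less than the Mps1sKO libraries did. The fold change was 1.24 with a 95% interval from 1.07 to 1.44 (edgeR unadjusted p = 0.00984, adjusted p = 0.494). The study had picked *Ptpn13* for its apoptosis term on these same libraries, so its values here are no independent evidence. The study also measured *Ptpn13*, *Tnf* and *Tnfrsf1a* by qPCR and reported matching changes, which were not analysed here. Leaving out any 1 library kept the log2 fold change of *Ptpn13* between 0.24 and 0.39. An antisense gene, *Gm42620*, that shares 70 exon bases with *Ptpn13* had at most 2 counts in any library.

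Of the adaptors, *Fadd* (ENSMUSG00000031077, chromosome 7 from 144577318 to 144582463) had the largest positive log2 fold change after *Ptpn13*. Its levels were 18.6 and 15.3 CPM in control and 19.8 and 21.8 CPM in Mps1sKO libraries. The groups did not overlap, but the gap of the nearest values was smaller than the difference between the controls. The estimate was 0.30 on the log2 scale (SE 0.14, edgeR adjusted p = 0.561), and it moved between 0.16 without control replicate 2 and 0.44 without control replicate 1. An antisense gene, *Faddos*, shares 239 exon bases with *Fadd* and had between 8 and 18 counts per library, and the strand setting of the counting is not given in the sources used here.

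*Tradd* (ENSMUSG00000031887, chromosome 8 from 105258286 to 105264609), the adaptor of TNF receptor 1, differed more between the Mps1sKO libraries than between the genotypes. Its levels were 12.1 and 10.5 CPM in control and 9.62 and 13.7 CPM in Mps1sKO libraries. The Mps1sKO libraries were thus the lowest and the highest of the 4. Its log2 fold change was 0.053 (SE 0.19, edgeR adjusted p = 0.952), with −0.23 without Mps1sKO replicate 2 and 0.28 without Mps1sKO replicate 1. *Traf2* (ENSMUSG00000026942, chromosome 2 from 25517982 to 25546940), which encodes a ubiquitin ligase adaptor that brings cIAP proteins to the receptor, had 34.2 and 33.9 CPM in control and 28.7 and 32.9 CPM in Mps1sKO libraries. Both Mps1sKO values were below both control values, the second by a small margin. The log2 fold change was −0.14 (SE 0.11, edgeR adjusted p = 0.699), between −0.24 without Mps1sKO replicate 2 and −0.049 without Mps1sKO replicate 1.

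*Cflar* (ENSMUSG00000026031, chromosome 1 from 58711508 to 58758884) had 104 and 101 CPM in control and 122 and 118 CPM in Mps1sKO libraries. The distance between the groups exceeded the spread within each, and the fold change was 1.17 with a 95% interval from 1.02 to 1.34 (edgeR unadjusted p = 0.0321, adjusted p = 0.517). On the log2 scale this is 0.22, and the estimate stayed between 0.20 and 0.25 whichever library was left out.

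Among the kinases and the effector of necroptosis, the log2 fold changes of *Ripk1* and *Mlkl* were positive and that of *Ripk3* was negative. *Ripk1* (ENSMUSG00000021408, chromosome 13 from 34002363 to 34037147), which encodes the kinase at the branch between survival and death, had 45.1 and 44.2 CPM in control and 51.4 and 52.8 CPM in Mps1sKO libraries. The groups were well apart compared with the spread within each, and the fold change was 1.17 with a 95% interval from 1.01 to 1.35 (edgeR unadjusted p = 0.0406, adjusted p = 0.527). The estimate on the log2 scale stayed between 0.20 and 0.24 whichever library was left out. The start of *Ripk1* overlaps *Serpinb6a* on the opposite strand, with 241 shared exon bases of the 8344 bases counted for *Ripk1*, and *Serpinb6a* had between 5183 and 6088 counts per library. A pseudogene on the same strand, *Gm17084*, shares 511 exon bases with *Ripk1* and had 0 counts. What these shared bases contribute to the *Ripk1* counts was not tested.

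*Ripk3* (ENSMUSG00000022221, chromosome 14 from 55784995 to 55788865) was counted 563 and 552 times in control and 439 and 463 times in Mps1sKO libraries, which is 20.9 and 19.1 CPM against 18.9 and 17.3 CPM. The Mps1sKO values were lower, with the higher of them almost at the level of control replicate 2. This gave a log2 fold change of −0.15 (SE 0.12, edgeR adjusted p = 0.730), between −0.21 and −0.079 with 1 library left out. *Mlkl* (ENSMUSG00000012519, chromosome 8 from 111311797 to 111338177) had 12.9 and 11.6 CPM in control and 14.6 and 13.7 CPM in Mps1sKO libraries. Here both Mps1sKO values were above both control values, with a log2 fold change of 0.20 (SE 0.13, edgeR adjusted p = 0.648), between 0.13 and 0.28 with 1 library left out.

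In all, both Mps1sKO libraries lay above both control libraries for 5 of the 10 genes, *Ptpn13*, *Fadd*, *Cflar*, *Ripk1* and *Mlkl*, and below them for *Traf2* and *Ripk3*. Over all loci tested the groups did not overlap for 41.4%, with 20.3% higher and 21.1% lower. With libraries scaled by their totals alone, with no filter or with the stricter filter, *Tnfrsf10b* joined the genes that lay below.

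Set side by side per length, the 10 genes ran from 0.748 to 8.67 FPKM in control testes. *Ripk3* was highest at 8.67 ± 0.527 FPKM, followed by *Ptpn13* at 8.31 ± 0.136 and *Cflar* at 8.05 ± 0.151 FPKM (SD, n = 2 each). The control values of *Ripk3* and *Ptpn13* overlapped, so their order is not resolved. *Traf2* and *Tradd* followed at 6.63 ± 0.0391 and 6.00 ± 0.605 FPKM (SD, n = 2 each), and *Ripk1* and *Mlkl*, at 5.31 ± 0.0648 and 5.29 ± 0.379 FPKM, overlapped each other (SD, n = 2 each). *Fadd* came next at 4.30 ± 0.588 FPKM (SD, n = 2), above *Tnfrsf10b* and *Fas*. In Mps1sKO testes *Ptpn13*, at 10.4 ± 0.727 FPKM, and *Cflar*, at 9.43 ± 0.195 FPKM, stood above *Ripk3* at 7.87 ± 0.497 FPKM (SD, n = 2 each). *Tradd*, *Ripk1*, *Mlkl* and *Traf2* then had means between 6.02 and 6.24 FPKM. Both receptors stayed at the bottom of the order in both genotypes. Of all loci tested, 21.6% were below *Fas* and 66.6% below *Ripk3* in control testes.

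**Figure D2:**
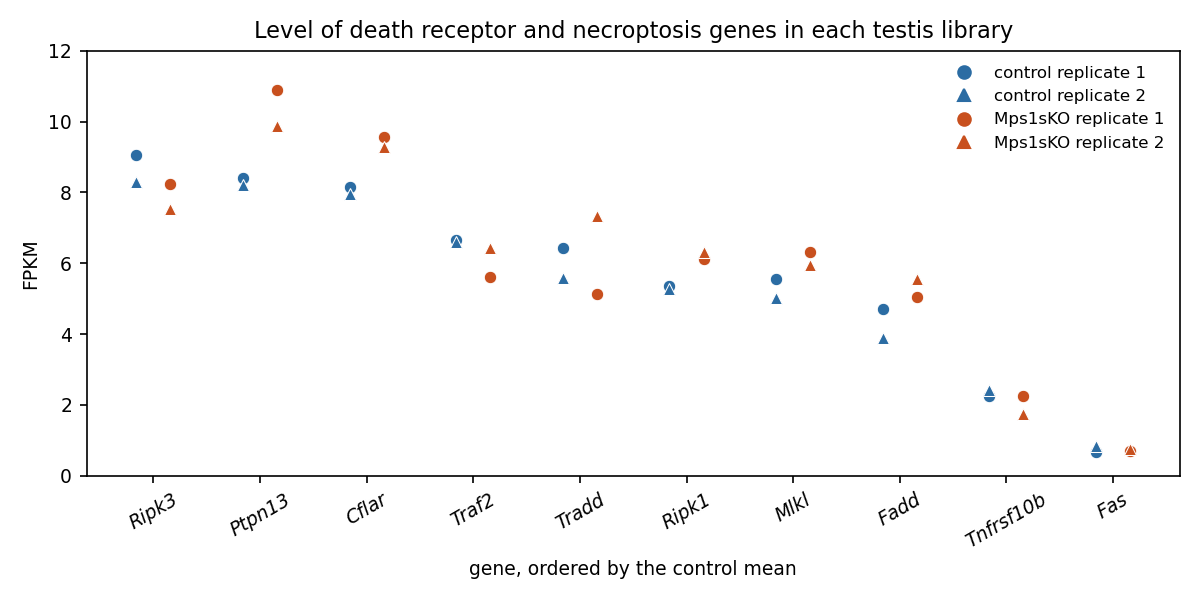
FPKM of the 10 genes in each library, ordered by the control mean, with circles for replicate 1 and triangles for replicate 2. *Ptpn13* and *Cflar* lie higher in both Mps1sKO libraries, *Ripk3* lower, and *Fas* stays below 1 FPKM in every library.

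Ratios of 2 genes within a library do not depend on how libraries are scaled. A total of 8 pairs were computed, chosen with the levels known. The ratio of the FPKM values of *Mlkl* to *Ripk3* was 0.615 and 0.606 in control and 0.769 and 0.789 in Mps1sKO libraries. Counting error alone gives the log2 fold changes of *Mlkl* and *Ripk3* standard errors of 0.077 and 0.065. The closeness of the 2 libraries of a group is therefore no measure of the error of this ratio. The ratio of *Ripk1* to *Ripk3* was 0.592 and 0.634 in control and 0.745 and 0.839 in Mps1sKO libraries. In each of these pairs the kinase RIPK3 is the partner of the other protein, and both Mps1sKO ratios were above both control ratios. The ratio of *Cflar* to *Casp8*, which encodes caspase-8, the protease that cFLIP resembles, was 0.692 and 0.673 in control and 0.799 and 0.735 in Mps1sKO libraries. For *Tradd* to *Fadd* it was 1.36 and 1.44 in control and 1.02 and 1.32 in Mps1sKO libraries. The ratios of *Cflar* to *Fadd* and of *Tnfrsf10b* to *Fas* overlapped between the genotypes, while *Ripk1* to *Casp8* and *Ptpn13* to *Fas* were higher in both Mps1sKO libraries. With 2 libraries a group these are descriptions, and the share of other gene pairs that do not overlap was not computed.

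**Figure D3:**
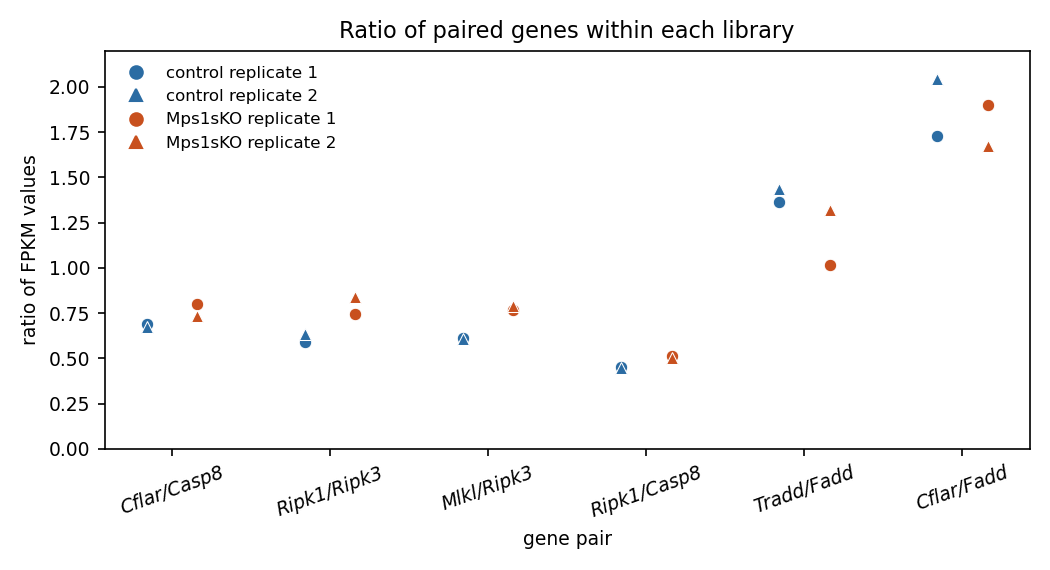
Ratio of the FPKM values of 2 genes within each library, for 6 of the 8 pairs. The Mps1sKO libraries, in orange, lie above the control libraries for the 4 pairs on the left and below them for *Tradd*/*Fadd*, and *Cflar*/*Fadd* overlaps.

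The counts of FAS ligand and of TNF were low, and those of TRAIL were enough for a test. *Fasl*, which encodes FAS ligand, had 7 and 5 counts in control and 9 and 2 counts in Mps1sKO libraries and was not kept for the test. Its ratio of Mps1sKO to control was 1.02, with an exact 95% interval from 0.409 to 2.53. *Tnfsf10*, which encodes TRAIL, was tested, with 2.01 and 2.22 CPM in control and 2.16 and 2.43 CPM in Mps1sKO libraries or 0.12 on the log2 scale (SE 0.22, edgeR adjusted p = 0.895). *Tnf*, also not kept, was counted 1 and 2 times in control and 13 and 9 times in Mps1sKO libraries. Its ratio was 8.19, with an exact 95% interval from 2.46 to 42.7 that, like the one for *Fasl*, covers counting error only, and the study had picked this gene on the same libraries.

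A list of 58 other genes of the pathway, drawn up by role, had 54 tested genes. Of these 0 passed an adjusted p of 0.05 with edgeR, DESeq2 or limma-voom. There were 32 with a positive and 22 with a negative log2 fold change, and the median was 0.030. At an unadjusted p below 0.05 there were 3 higher genes and 1 lower gene with edgeR, against the 3.92% and 5.37% of all loci. The higher genes were *Tnfrsf1a*, *Cradd* and *Tlr3*, and the lower was *Faf1*. Without the filter on low counts all 58 genes were tested, and 7 of them reached the threshold, as did 8.52% of all loci. *Tnf*, which was not tested in the filtered fit, was among these 7. The number also changed with 1 library left out, as did the share of all loci, and other sets of genes were tested there.

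*Tnfrsf1a*, which encodes TNF receptor 1, had 81.2 and 68.1 CPM in control and 96.8 and 92.6 CPM in Mps1sKO libraries, a fold change of 1.27 with a 95% interval from 1.06 to 1.51 (edgeR adjusted p = 0.497). This gene too was picked by the study on these libraries. *Cradd*, an adaptor with a death domain, had 11.7 and 9.64 CPM against 14.4 and 13.1 CPM, and *Tlr3*, a receptor for double-stranded RNA that can lead to necroptosis through its adaptor, had 10.1 and 10.8 CPM against 13.4 and 13.5 CPM. In each of these 3 genes both Mps1sKO libraries were higher, as for 20.3% of all loci tested. All 3 were picked for results on the same libraries, so this adds no evidence. *Faf1*, a FAS-associated factor, had 80.0 and 81.4 CPM in control and 66.6 and 67.4 CPM in Mps1sKO libraries, a fold change of 0.830 with a 95% interval from 0.722 to 0.954 (edgeR adjusted p = 0.497).

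By role, the unadjusted threshold was reached by 1 of 8 other death and decoy receptors, 2 of 10 genes of the caspase-8 branch and FAS regulators, 0 of 15 ubiquitin ligases and deubiquitinases that act on RIPK1, 0 of 8 kinases that hold RIPK1 in check, and 1 of 11 necroptosis triggers and MLKL regulators. Of the 6 ligands only 2 were tested, and neither reached it. *Casp8* itself had 34.4 and 34.4 CPM in control and 34.8 and 36.6 CPM in Mps1sKO libraries, a log2 fold change of 0.056 with a 95% interval from −0.17 to 0.28.

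**Figure D4:**
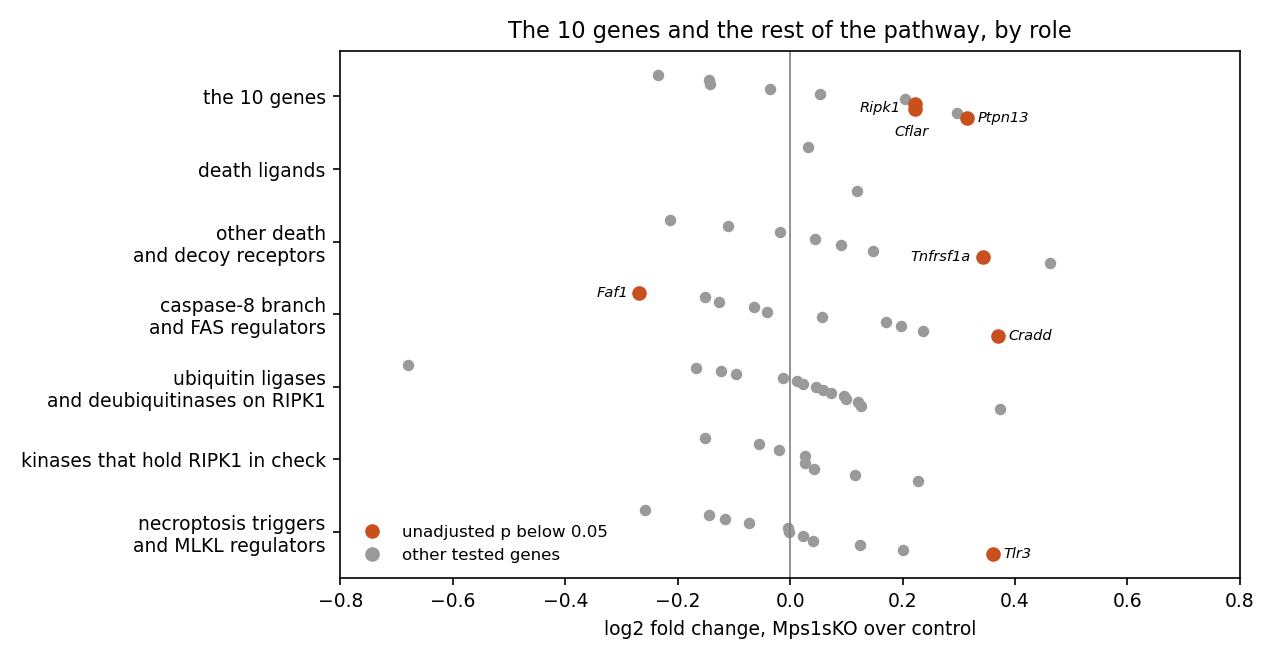
Log2 fold change, Mps1sKO over control, of the 10 genes and of the 54 tested genes of the pathway list, 1 row per role, with genes at an unadjusted p below 0.05 in orange. The named genes are *Ripk1*, *Cflar*, *Ptpn13*, *Tnfrsf1a*, *Cradd*, *Tlr3* and *Faf1*, and most other points lie near 0.

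Markers of testis cell types differed in level between the same libraries, although 0 genes of any of the 12 lists passed an adjusted p of 0.05 with edgeR. All 11 tested genes of a Sertoli cell list of 12 had higher levels in Mps1sKO testes, with summed levels of 6561 and 6744 CPM in control and 8274 and 7901 CPM in Mps1sKO libraries, and its gene *Rhox5* had at most 3 counts in every library. All 10 genes of a germ cell list were lower, from 1632 and 2012 CPM in control to 1535 and 1140 CPM in Mps1sKO libraries, and all 14 of a meiotic prophase list were lower, from 706 and 920 CPM to 596 and 494 CPM. At an unadjusted p below 0.05 there were 3 higher Sertoli cell genes, 9 lower germ cell genes and 12 lower meiotic prophase genes. Differentiating spermatogonia had 4 lower genes and 1 higher, undifferentiated spermatogonia 2 lower, and the adipocyte list 3 lower and 1 higher. The remaining lists had 0. Over all loci tested, 3.92% were higher and 5.37% lower at this threshold. The part of these marker shifts in the values of the 10 genes was not tested. Genes of differentiating spermatogonia were lower in 5 of 6 and those of undifferentiated spermatogonia in 5 of 10 cases. The macrophage list summed to between 169 and 184 CPM and the T and NK cell list to between 6.47 and 7.50 CPM in the 4 libraries, with 4 of 10 and 2 of 6 tested genes higher. Of the tested Leydig cell, peritubular myoid, endothelial, red blood cell and adipocyte genes, 5 of 7, 2 of 6, 6 of 8, 3 of 5 and 1 of 4 were higher.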

How the data were processed

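Testis RNA of 4 libraries was grouped by the titles in the labels. Per the labels, NEBNext Ultra libraries were made from 1 μg of RNA and read as 150 bp pairs on a NovaSeq platform, and the submitters' processing notes name HISAT2 2.0.5, featureCounts, DESeq2 1.16.1 and mm10. The strand setting and annotation are not given in the sources used here, but all 55536 annotated loci had the coordinates of GENCODE M21 on GRCm38, and 284 loci had no identifier. The authors deposited raw counts per gene, and FPKM values for which they divided by gene length and by a library size equal to the DESeq2 size factor times the geometric mean of the totals.

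Tests on the counts were run in R 4.3.3 with edgeR 4.0.16 (filterByExpr, TMM, estimateDisp, glmQLFit and glmQLFTest), with a common biological coefficient of variation of 0.106. Standard errors are the log2 fold change divided by the square root of F, and intervals use the total degrees of freedom. Alternatives were DESeq2 1.42.0, limma-voom 3.58.1, other scalings and filters, annotated loci only, a replicate block and each library left out. The scripts were tested on simulated data. The 10 genes, the 58 genes of the pathway list and 12 cell type marker lists were chosen with earlier results of these data known. Named genes are the 10, *Ttk*, *Fasl*, *Tnfsf10*, *Tnf*, *Tnfrsf1a*, *Casp8*, any pathway gene with an unadjusted p below 0.05, and overlapping loci. *Rhox5* and the adipocyte genes *Fabp4*, *Car3*, *Adipoq*, *Retn*, *Cidec*, *Plin1* and *Lep* were named after their values were seen. Intervals and the limit of 3 counts, which is 0.105 to 0.129 CPM, cover counting error only where they rest on counts alone. Protein sequences and the qPCR, staining and blots of the study were not analysed here.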

Additional observations from a re-analysis of the deposited data

How the results depend on the processing

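Of 120 values of single genes under the alternatives, 116 kept their direction and their side of an adjusted p of 0.05 (DESeq2 gave *Fas* none), and the other 4 are of *Fas* (0.14 without control replicate 2, 0.010 without Mps1sKO replicate 1) and *Tradd* (−0.050 without control replicate 2, −0.23 without Mps1sKO replicate 2), whose log2 fold changes ranged from −0.19 to 0.14 and from −0.23 to 0.28 with 1 library left out. Apart from the crossed pairing given below, none of the 10 genes had an adjusted p below 0.05 in any fit, although the number of all loci that passed it was 6 with edgeR, 37 with DESeq2, 390 without the filter, 2 to 6 in the other uncrossed fits of 4 libraries and 17 to 199 with 1 library left out. At an unadjusted p below 0.05, the 3 of the 10 genes with edgeR became 1 with DESeq2. The share of all loci was 9.30% of 20561 with edgeR and 3.20% of 35262 with DESeq2. Both the number of the 10 and the share of all loci also changed with 1 library left out. At the relaxed cut-offs, the count of 1 became 2 without the filter on low counts and ranged from 0 to 2 with 1 library left out. The share of all loci at the relaxed cut-offs was not computed for these fits, so whether the 10 genes moved apart from the other loci cannot be told. The median log2 fold change of the 10 ranged from 0.074 to 0.20. For the pathway list, the 4 genes at an unadjusted p below 0.05 became 7 without the filter and ranged from 1 to 8 with 1 library left out. The share of all loci at this threshold was 8.52% without the filter, and it also changed with 1 library left out. The changes in the number of pathway genes therefore cannot be read as a property of the pathway list. With 1 library left out, the lone library of a group is assumed to vary like the other group.

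Same-numbered libraries are not stated to be paired, and their deviations from the group means correlated at −0.19. With the replicate number as a block, 1 of the 10 genes, *Ptpn13*, and 1 of the pathway list, *Tnfrsf1a*, had an unadjusted p below 0.05, as 5.05% of all loci did, so *Cflar* and *Ripk1* were lost, and none of these genes passed an adjusted p of 0.05 with or without the block. With the numbers crossed, an alternative chosen after seeing the data, 1 of the 10 genes passed an adjusted p of 0.05, as 550 of all 20561 loci did, and 4 of the 10 and 11 of the pathway list an unadjusted one, as 18.4% of all loci did. With 2 libraries a group, crossing the numbers reverses the sign of the correlation of deviations by construction, so the crossed fit is no independent check. What this does to the number of loci called was not tested. Counting error alone gives the log2 fold change of *Fas* a standard error of 0.23, the largest of the 10 genes.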
